A study of Mus musculus with 35 samples.

Results

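Genes of neutrophil cell biology, *Fpr1*, *Fpr2*, *Trem1*, *Ceacam1*, *Ceacam10*, *Cd177*, *Stfa2l1* and *Retnlg*, 8 in all, were followed through sorted myeloid-derived suppressor cells (MDSC) and bulk pancreatic tumors of mice. They were taken by gene symbol, through the Ensembl identifiers of the count table, and all 8 were found among 53379 identifiers, of which 53274 have a symbol. The members are grouped here as surface receptors, but not all of them are: the stefin encoded by *Stfa2l1* is an intracellular protease inhibitor, and the products of *Retnlg* and *Ceacam10* are secreted.

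MDSC came from female C57BL/6 mice with orthotopic tumors of T110299, 1 cell line derived from the KPC model of pancreatic cancer (its alleles include p53fl/R172H and Ptf1a-Cre, which acts in pancreatic cells). Treated mice received 50 µg poly(I:C), a synthetic double-stranded RNA sensed by MDA5, in complex with polyethylenimine (poly(I:C)c) by vein on day 18 and day 20 after tumor implantation, whereas control mice received glucose according to the treatment protocol and are labelled untreated. PMN-MDSC were sorted as CD11b+ Ly6C lo Ly6G+ cells and M-MDSC as CD11b+ Ly6C hi Ly6G- cells, from spleen and from tumor, which gives 8 MDSC groups of 4 libraries, or 3 for PMN-MDSC from spleens and M-MDSC from tumors of treated mice. Bulk tumor from untreated mice, lysed without sorting, gives 4 more libraries. All mice carried a tumor, so no group shows these cells in a tumor-free host.

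Neutrophils find bacteria and damaged tissue by sensing peptides that start with a formylated methionine, which bacteria and mitochondria make and host cytosol does not. FPR1 and FPR2 are receptors coupled to inhibitory G proteins that turn this signal into directed movement, granule release and an oxidative burst. TREM1 amplifies inflammatory signals through the adaptor DAP12, CEACAM1 carries inhibitory motifs in its tail, and CD177 is a glycolipid-anchored glycoprotein that marks neutrophils and their precursors and binds PECAM1.

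Several members are copies of one another or lie side by side in the genome (GRCm38), and sequences around their starts are shown because near-copies share part of their letters. *Fpr1* (chr17:17876471-17883940, minus strand) and *Fpr2* (chr17:17887824-17893952, plus strand) start 3884 bases apart and are transcribed away from each other. *Cd177* (chr7:24743983-24760311, minus strand) and *Ceacam10* (chr7:24777206-24784657, plus strand) also start as divergent neighbours, 16895 bases apart, and *Ceacam1* (chr7:25461707-25477603, minus strand) lies 700397 bases from *Ceacam10*. *Trem1* (chr17:48232768-48246924), *Stfa2l1* (chr16:36156811-36161953) and *Retnlg* (chr16:48872621-48874496) are on the plus strand.

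The windows from 250 bases before to 50 bases after the start of *Ceacam1* (chr7:25477576-25477875) and of *Ceacam10* (chr7:24776954-24777253) were 92.2% identical over 281 aligned bases, although the transcripts were 75.4% identical. They are printed 5′ to 3′ in the direction of transcription, from RefSeq on GRCm38.p6, with the bases that differ or have no partner in capitals:
Ceacam1: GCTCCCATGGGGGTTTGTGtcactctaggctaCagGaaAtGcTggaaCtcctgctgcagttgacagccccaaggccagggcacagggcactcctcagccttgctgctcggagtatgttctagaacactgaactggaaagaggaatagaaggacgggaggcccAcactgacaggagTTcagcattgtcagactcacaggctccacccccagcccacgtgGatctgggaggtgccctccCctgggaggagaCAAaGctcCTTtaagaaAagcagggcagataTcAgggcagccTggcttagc
Ceacam10: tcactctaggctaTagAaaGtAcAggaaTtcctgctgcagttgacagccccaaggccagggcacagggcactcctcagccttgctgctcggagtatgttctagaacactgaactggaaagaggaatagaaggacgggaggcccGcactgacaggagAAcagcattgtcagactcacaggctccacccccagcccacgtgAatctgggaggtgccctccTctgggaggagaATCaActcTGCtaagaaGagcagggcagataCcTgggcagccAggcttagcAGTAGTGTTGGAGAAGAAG

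The start windows of *Stfa2l1* (chr16:36156561-36156860) and *Stfa2* (chr16:36408314-36408613) were 92.9% identical over 296 aligned bases, and their transcripts 95.7%. They are shown in the same way because these stefin genes are near-copies:
Stfa2l1: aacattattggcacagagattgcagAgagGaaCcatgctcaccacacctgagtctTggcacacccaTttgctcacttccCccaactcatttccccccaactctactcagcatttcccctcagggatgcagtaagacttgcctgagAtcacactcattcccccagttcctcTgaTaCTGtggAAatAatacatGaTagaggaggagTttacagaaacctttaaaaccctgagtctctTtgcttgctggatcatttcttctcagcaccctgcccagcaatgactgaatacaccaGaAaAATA
Stfa2: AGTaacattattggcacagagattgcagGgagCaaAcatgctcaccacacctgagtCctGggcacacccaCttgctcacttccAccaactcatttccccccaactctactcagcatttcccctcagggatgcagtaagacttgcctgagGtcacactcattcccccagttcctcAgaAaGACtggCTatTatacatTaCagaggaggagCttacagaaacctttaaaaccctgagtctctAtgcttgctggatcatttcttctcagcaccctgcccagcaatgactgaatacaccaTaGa

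Of *Stfa2l1*, 24.6% of the distinct stretches of 50 bases in its transcript also occur in other genes, mainly *Stfa2*. The share was 31.5% for *Fpr2* (mainly *Gm5966* and *Fpr3*, the second of which overlaps its exons on the same strand), 30.4% for *Ceacam1* (mainly *Ceacam2*), 5.51% for *Cd177*, 3.0% for *Ceacam10*, 0.078% for *Fpr1* and 0 for *Trem1* and *Retnlg*. Counts of *Stfa2l1*, *Fpr2* and *Ceacam1* are therefore less certain than the others, since reads from such stretches cannot be placed. *Ceacam2* itself reached at most 3.83 CPM (counts per 1e+06 counts of the library) in any library, and *Fpr3* was at or near 0.

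In the start window of *Fpr2* (chr17:17887574-17887873, plus strand) the letters TTCNNNGAA of a gamma-activated site, the form bound by STAT proteins, occurred once, as TTCTGGGAA 77 to 69 bases before the start, marked here in capitals:
Fpr2: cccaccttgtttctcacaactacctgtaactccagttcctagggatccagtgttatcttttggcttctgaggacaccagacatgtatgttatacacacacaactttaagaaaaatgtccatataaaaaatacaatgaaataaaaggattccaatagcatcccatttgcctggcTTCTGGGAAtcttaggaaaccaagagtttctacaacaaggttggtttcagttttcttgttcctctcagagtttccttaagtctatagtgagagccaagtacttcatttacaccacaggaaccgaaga

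The same letters, which read alike on both strands, stood in the window of *Trem1* (TTCAGAGAA, 171 to 163 bases before the start) and in 8.30% of all 32851 windows. The letters of an interferon-stimulated response element, GAAA, NN and GAAA in a row, searched on both strands, were in 3.44% of windows and in none of the members' windows. The PU.1 letters GAGGAAGT were in 3.20% of windows and in no member's window, and the C/EBP letters TTGCNNAA in 10.8% and, among members, in the window of *Retnlg*. These are matches of letters and no measure of binding.

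MDSC libraries held 793070 to 4357105 counts and bulk tumor libraries 3771590 to 8886115. A level of 0 is therefore compatible with up to 3.78 CPM in the smallest library and 0.689 CPM in the largest MDSC library (3 counts, counting error only). Summed CPM of 10 neutrophil markers, *S100a8*, *S100a9*, *Ly6g* and *Mmp8* among them, was 24878 to 44425 in untreated spleen PMN-MDSC and 35830 to 80577 in treated ones. It was 1514 to 5343 in untreated and 4747 to 12486 in treated tumor PMN-MDSC. The gate was Ly6G+, yet *Ly6g* was 0 to 9.19 CPM in untreated tumor PMN-MDSC against 34.5 to 84.7 CPM in spleen, and the sum of 10 monocyte and macrophage markers in those tumor libraries (4151 to 5636) overlapped that in tumor M-MDSC (4503 to 5678). Spleen M-MDSC held neutrophil marker sums of 4103 to 10477 untreated and 1141 to 6554 treated, and tumor M-MDSC 257 to 1172. One library of treated spleen M-MDSC, library 4, had a B cell marker sum of 13759 CPM, against 136 to 406 in the other 3, so results that rest on it are also given without it. The part of these cells in the results was not tested, and in bulk RNA fewer cells of a type and less RNA per cell cannot be told apart.

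Levels are CPM, and library numbers are names only. Differences are log2 fold changes with their standard error (SE), and adjusted p is from edgeR's quasi-likelihood test, two-sided, with Benjamini-Hochberg adjustment over all genes tested. A gene rose or fell where adjusted p was below 0.05.

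Per length, the members differed widely in untreated spleen PMN-MDSC. Mean FPKM (counts scaled to exon length and library total, SD over 4 libraries) was 821 ± 192 for *Retnlg* and 269 ± 119 for *Cd177*. It was 152 ± 50.1 for *Stfa2l1*, 103 for *Fpr2*, 76.0 for *Fpr1*, 59.6 for *Trem1*, 52.0 for *Ceacam1* and 25.8 for *Ceacam10*. The order was the same in treated spleen PMN-MDSC, with *Retnlg* at 3540 and *Ceacam10* at 57.5. In untreated tumor PMN-MDSC *Trem1* had the highest mean, 110 ± 41.8 FPKM, followed by *Retnlg* at 63.5 ± 55.7, and the spread of these neighbours overlapped. *Trem1* also led in untreated tumor M-MDSC (46.1 ± 20.1 FPKM), *Cd177* in untreated spleen M-MDSC (105 ± 25.5) and *Fpr2* in treated spleen M-MDSC (111 ± 16.4).

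**Figure D1:**
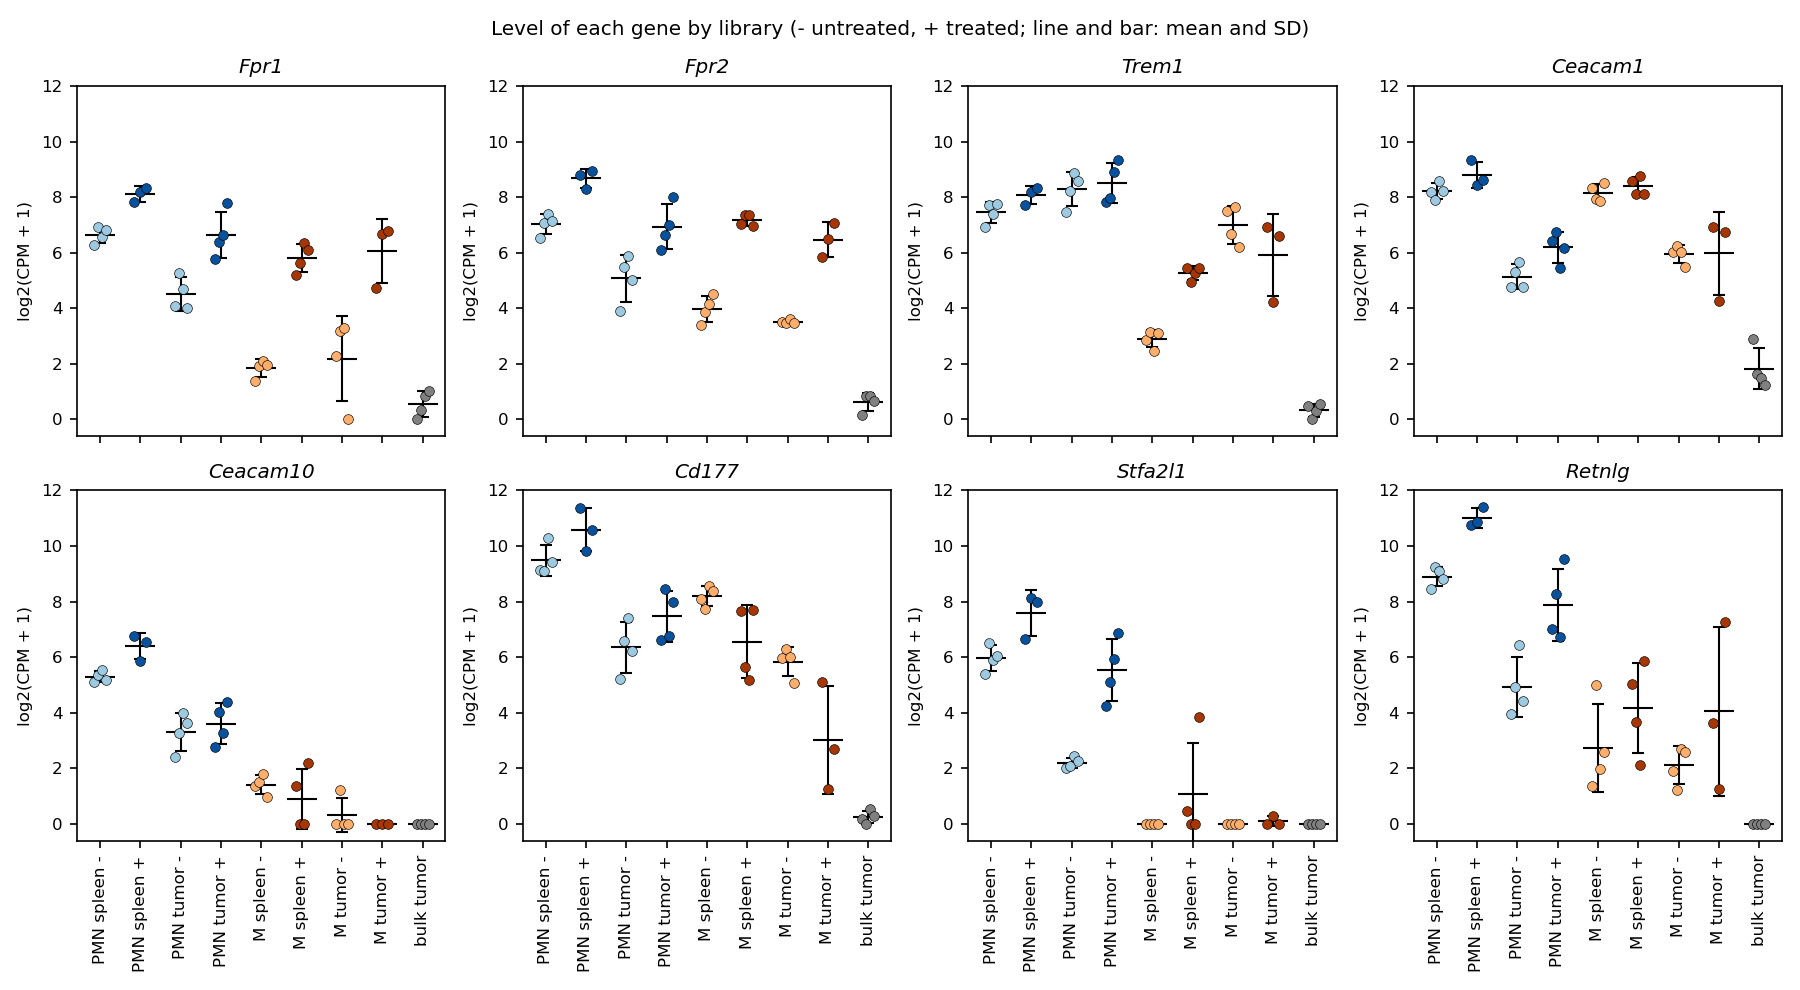
Level of each of the 8 genes in every library, as log2(CPM + 1) on the vertical axis, for PMN- and M-MDSC of each compartment, without (-) and with (+) treatment, and for bulk tumor; points are libraries, horizontal lines means and bars SD. *Fpr1* and *Fpr2* are higher in all treated than in all untreated M-MDSC libraries, *Ceacam10* and *Stfa2l1* are near 0 in most M-MDSC libraries, and all 8 genes are low in bulk tumor.

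Counted together for treatment, 5 of 8 members rose in spleen PMN-MDSC, where 6.10% of all genes tested did. Their median log2 fold change was 1.60, beside medians over all genes tested between -0.01 and 0.01 in the 4 treatment comparisons. In tumor PMN-MDSC 2 of 8 rose, against 2.29%, in spleen M-MDSC 3 of 6 tested, against 10.7%, and in tumor M-MDSC 2 of 6, against 1.82%. No member fell in any of these. Genes were tested where their mean over both groups was 25 counts or more, and a gene that reaches this through 1 group alone had to differ in mean count. All 8 members reached a mean of 25 counts in both groups in spleen PMN-MDSC. Among the members that did so in both groups, 1 of 6 rose in tumor PMN-MDSC, 1 of 3 in spleen M-MDSC and 0 of 3 in tumor M-MDSC, so the larger counts are no support for these 3 comparisons.

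Markers of other cells also moved with treatment. In spleen PMN-MDSC, where 6.10% of all genes tested rose, 5 of 10 neutrophil markers rose, *Ly6g* among them. Of 5 monocyte and macrophage markers with a mean of 25 counts in both groups, 3 fell and 1 rose. The share of all genes that fell there is not given, so the 3 that fell are description alone. The other 5 monocyte and macrophage markers and the 3 erythroid markers tested were tested through 1 group alone. The summed level of 10 monocyte and macrophage markers overlapped there, at 765 to 1808 CPM untreated and 809 to 1255 CPM treated, while that of 7 erythroid markers went from 67.1 to 205 CPM down to 0.36 to 7.04 CPM. In spleen M-MDSC 3 of 9 monocyte and macrophage markers with enough counts in both groups rose, against 10.7% of all genes, with *Ly6c2* at 2.76 (adjusted p = 4.1e-05 in edgeR). Of the same 9, 2 fell, *Ccr2* (-2.73, adjusted p = 5.7e-04) and *Cx3cr1* (-2.81, adjusted p = 0.00536). *Mrc1* (-3.06) and the erythroid *Hba-a1* (-6.14) were tested there through the untreated libraries alone, and the erythroid sum went from 29.7 to 68.8 CPM down to 0.675 to 3.16 CPM. In tumor 1 of 9 monocyte and macrophage markers with enough counts in both groups fell in PMN-MDSC, *Ccr2* (-2.95, adjusted p = 0.0367 in edgeR), while *Ly6c2* (4.53) was tested through the treated libraries alone, and 0 of 10 passed in M-MDSC (4 at an unadjusted p under 0.05, 3 in DESeq2). The shares of all genes that fell in spleen M-MDSC and in tumor PMN-MDSC are given below with the ligands and signalling genes. The part of other cells in the members' changes was not tested.

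**Figure D2:**
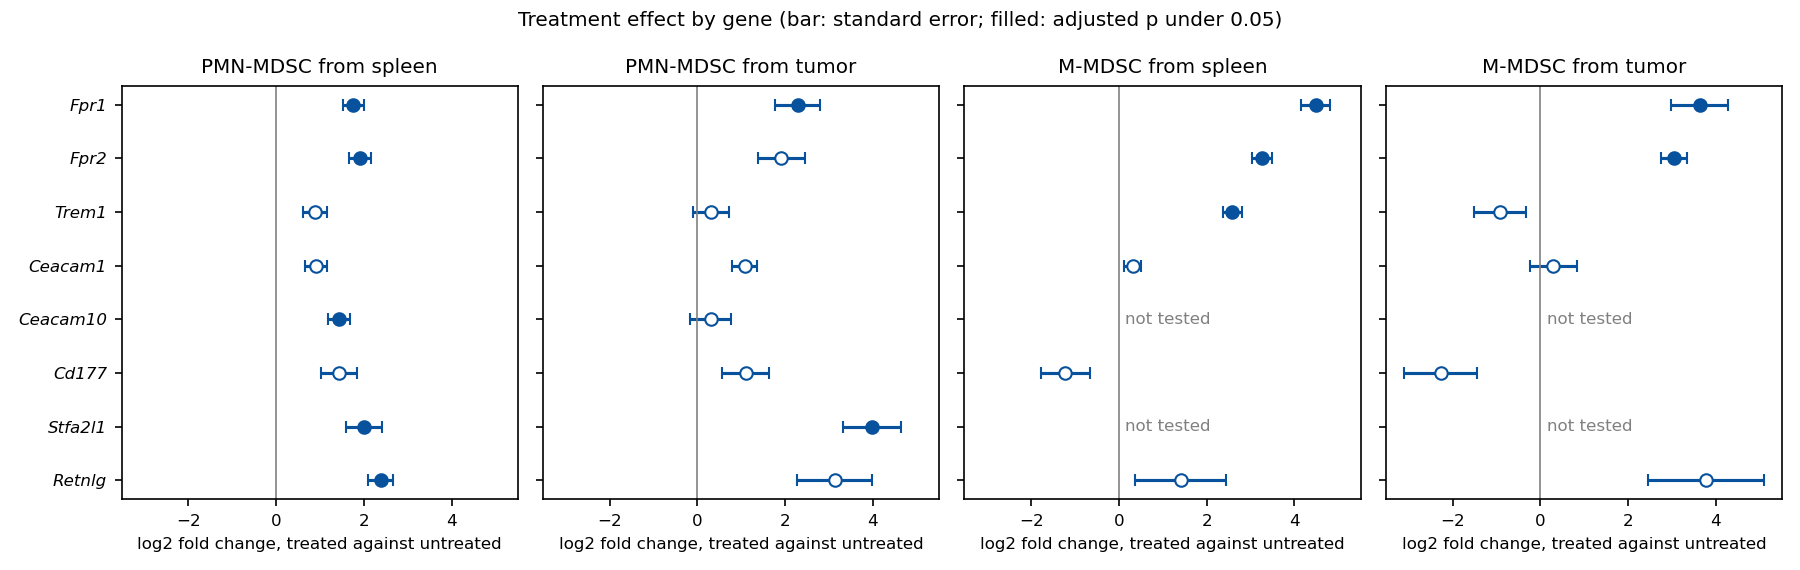
Log2 fold change of treated against untreated libraries on the horizontal axis for each of the 8 genes, with bars for the standard error and filled points for adjusted p under 0.05, in 4 panels for PMN- and M-MDSC from spleen and tumor. *Fpr1* is filled in all 4 panels and *Fpr2* in 3, while *Cd177* points right in PMN-MDSC (1.44 and 1.10) and left in M-MDSC (-1.22 and -2.27).

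*Fpr1* and *Fpr2* rose with treatment in spleen PMN-MDSC, *Fpr1* in tumor PMN-MDSC and *Fpr2* in spleen M-MDSC. In these the receptors had a mean of 25 counts or more in both groups. *Fpr1* in spleen M-MDSC (mean 7.25 counts untreated) and both receptors in tumor M-MDSC (12.75 and 20.75) were tested through the treated libraries alone, so their tests are no support of their own and the levels are the description. In untreated spleen M-MDSC *Fpr1* was at 1.58, 2.79, 3.31 and 2.86 CPM, and in treated ones at 35.5, 48.3, 81.0 and 67.2 CPM. Every treated library was above every untreated one, with a log2 fold change of 4.49 (SE 0.33, adjusted p = 4.1e-05 in edgeR). *Fpr2* in the same libraries was at 9.49, 13.5, 17 and 21.9 CPM untreated and 129, 164, 161 and 123 CPM treated, again without overlap (3.26, SE 0.22, adjusted p = 2.7e-05). Without the library high in B cell markers, the changes were 4.44 for *Fpr1* and 3.35 for *Fpr2*, and both passed.

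In tumor M-MDSC *Fpr1* was at 3.85, 8.09, 8.88 and 0 CPM untreated and at 25.3, 101 and 109 CPM treated. The groups did not overlap, and the change was 3.63 (SE 0.65, adjusted p = 0.0274 in edgeR), but the call was lost without any 1 of the untreated libraries or without treated library 3 (log2 fold change 3.34 to 4.04, adjusted p 0.0605 to 0.10). *Fpr2* was at 10.4, 10.1, 11.4 and 10.1 CPM untreated and 56.5, 89.5 and 134 CPM treated. Its untreated libraries were close to each other and all below the treated ones, with a change of 3.05 (SE 0.30, adjusted p = 0.00325).

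In spleen PMN-MDSC *Fpr1* went from 76.4, 121, 94.2 and 111 CPM to 224, 289 and 324 CPM, with no overlap (1.76, SE 0.24, adjusted p = 0.00453 in edgeR). *Fpr2* was at 92.3, 132, 169 and 140 CPM untreated and 446, 310 and 490 CPM treated, with no overlap and a change of 1.92 (SE 0.25, adjusted p = 0.00391). In tumor PMN-MDSC *Fpr1* was at 15.8, 37.9, 25.2 and 15.2 CPM untreated and 53.9, 83.6, 98.5 and 218 CPM treated, with no overlap (2.29, SE 0.51, adjusted p = 0.043). That call was lost without untreated library 1, 3 or 4 or treated library 2 or 3 (2.12 to 2.43, adjusted p 0.0694 to 0.143), and without a filter on low counts (0.0537). *Fpr2* in these libraries was at 13.9, 43.3, 58.7 and 31.8 CPM untreated and 67.6, 99.3, 127 and 258 CPM treated. Here too the groups did not overlap, but the change of 1.92 (SE 0.53) did not pass the test (adjusted p = 0.0975); it passed in DESeq2 (adjusted p = 0.0027) and in 1 fit over all MDSC groups (0.00294).

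The treatment effect on both receptors was smaller in spleen PMN-MDSC than in spleen M-MDSC. For *Fpr1* the effect in M-MDSC rests on a mean of 7.25 counts in the untreated libraries. The difference between the effects was -2.63 for *Fpr1* (SE 0.43, adjusted p = 0.00298 in edgeR) and -1.28 for *Fpr2* (SE 0.35, adjusted p = 0.0308), on the log2 scale. Without the library high in B cell markers they were -2.56 and -1.34, and both passed. The call for *Fpr2* was lost without M-MDSC library 1, 2 or 3 of the untreated or 2 or 3 of the treated mice, or PMN-MDSC library 4 of the untreated or 2 of the treated mice (-1.31 to -1.12, adjusted p 0.052 to 0.0643), and in 1 fit over all MDSC groups (0.0888). In tumors the corresponding differences were -1.33 (SE 0.90) and -1.14 (SE 0.69) and did not pass (adjusted p = 0.714 and 0.686).

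The levels of *Fpr1* ran from spleen PMN-MDSC of treated mice at the top, 279 ± 50.9 CPM (SD, n = 3), to bulk tumor at 0.521 ± 0.472 (SD, n = 4). Treated tumor PMN-MDSC (114 ± 72.0 CPM), untreated spleen PMN-MDSC (101 ± 19.6), treated tumor M-MDSC (78.5 ± 46.3) and treated spleen M-MDSC (58.0 ± 20.1) followed, each overlapping the next. Untreated tumor PMN-MDSC came next (23.5 ± 10.6 CPM), above the untreated M-MDSC of tumor (5.20 ± 4.11) and spleen (2.63 ± 0.739), which overlapped each other.

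For *Fpr2*, treated spleen PMN-MDSC (416 ± 93.7 CPM) stood above all other groups. Treated spleen M-MDSC (144 ± 21.2 CPM), treated tumor PMN-MDSC (138 ± 83.8), untreated spleen PMN-MDSC (133 ± 31.6) and treated tumor M-MDSC (93.5 ± 39.2) overlapped from one to the next. Untreated tumor PMN-MDSC (37.0 ± 18.9 CPM), untreated spleen M-MDSC (15.5 ± 5.27) and untreated tumor M-MDSC (10.5 ± 0.603) were lowest among MDSC. In untreated spleen *Fpr2* was higher in PMN- than in M-MDSC (3.46, SE 0.28, adjusted p = 8.3e-06 in edgeR). The difference was 5.58 for *Fpr1* in untreated spleen (SE 0.26), and in untreated tumor 2.02 for *Fpr1* (SE 0.49) and 1.86 for *Fpr2* (SE 0.37), and these 3 were tested through PMN-MDSC alone.

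**Figure D3:**
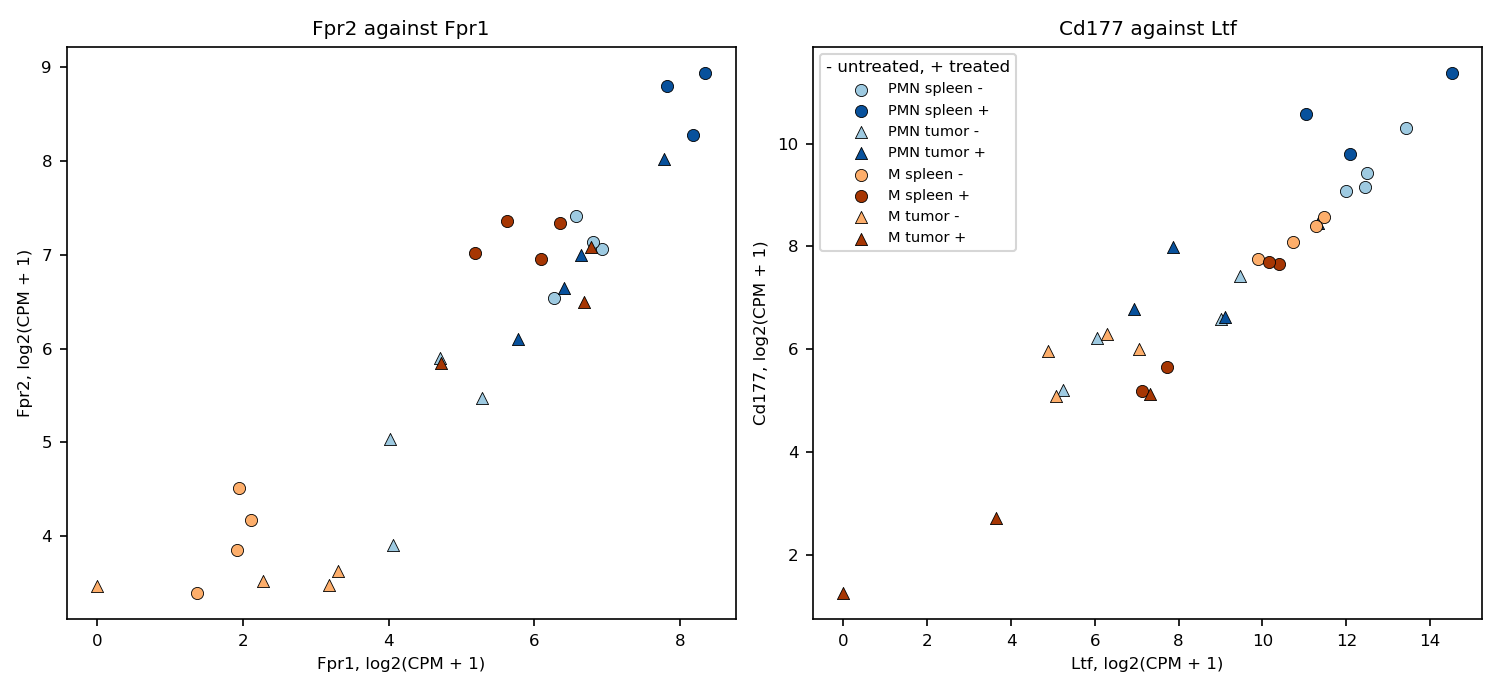
Left, *Fpr2* against *Fpr1* and right, *Cd177* against the granule gene *Ltf*, both axes log2(CPM + 1), 1 point per MDSC library, shaped by compartment and coloured by cell type and treatment. *Fpr1* and *Fpr2* lie along 1 line (Pearson r = 0.932 over 30 libraries), with untreated M-MDSC at the low end and treated spleen PMN-MDSC at the high end, and *Cd177* follows *Ltf* (r = 0.942), including the low treated M-MDSC libraries.

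Over the 30 MDSC libraries, which share groups and differ in depth, the gene most like *Fpr1* among 8533 was *Fpr2* (Pearson r = 0.932 of log2(CPM + 1)), followed by *Klra17* (0.921) and *Ebi3* (0.918). Next to *Fpr1*, *Fpr2* was most like *Oasl2* (0.931) and *Ifit3b* (0.922), which belong to families of interferon-induced genes. Of the 7 genes of the receptor family in the table only these 2 had enough counts to test in the treatment comparisons. *Fpr3*, *Fpr-rs3*, *Fpr-rs4*, *Fpr-rs6* and *Fpr-rs7* were at or near 0 throughout.

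Among 17 genes for ligands and signalling of these receptors, 0 of 17 tested passed with treatment in spleen PMN-MDSC in edgeR, with 6 at an unadjusted p under 0.05 and 3 called by DESeq2. In tumor PMN-MDSC 1 of 17 fell, *Plcb2*, a phospholipase acting below G proteins (-0.65, adjusted p = 0.0459 in edgeR), where 1.07% of all genes fell. In spleen M-MDSC 2 of 17 fell, *Plcb2* (-0.84, adjusted p = 0.0279) and *Rgs18*, a regulator of G protein signalling (-1.58, adjusted p = 0.0402, tested through the untreated libraries alone), where 8.96% of all genes fell, and in tumor M-MDSC 0 of 16 passed (2 at an unadjusted p under 0.05, 1 in DESeq2). *Anxa1*, whose product is an FPR2 ligand, was lower by 3.41 on the log2 scale in tumor than in spleen PMN-MDSC of untreated mice, where 29.7% of all genes were lower. In treated mice *Anxa1* was lower by 3.32, and other genes of the list were lower too, such as *Rgs18* (-2.43) and *Rac2* (-1.97). *Gnb1* was the one that pointed the other way (0.20), and it did not pass.

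*Trem1* set itself apart from the other members by compartment: it was not lower in tumor PMN-MDSC, and in untreated mice it was far higher in M-MDSC from tumors than in those from spleens. In treated M-MDSC the difference was 1.11 (SE 0.53, adjusted p = 0.248), with overlapping libraries. In untreated M-MDSC it was at 6.33, 7.90, 4.55 and 7.62 CPM in spleen and at 180, 101, 198 and 73.1 CPM in tumor. No libraries overlapped, and the difference was 4.64 (SE 0.33), tested through the tumor libraries alone. In untreated PMN-MDSC the levels were 122, 211, 166 and 216 CPM in spleen and 174, 296, 468 and 382 CPM in tumor, which overlapped (0.73, SE 0.31, adjusted p = 0.0623 in edgeR, 0.0493 in DESeq2 and 0.0103 without a filter on low counts).

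With treatment *Trem1* passed the edgeR test in spleen M-MDSC and not in the other 3 settings, but in spleen M-MDSC it was tested through the treated libraries alone (mean 18 counts untreated). It went there to 43.0, 29.7, 37.5 and 42.5 CPM, above every untreated library, a change of 2.59 (SE 0.22, adjusted p = 7.6e-05 in edgeR, and 2.55 without the library high in B cell markers). In tumor M-MDSC the treated libraries held 121, 17.9 and 96.2 CPM, within or below the untreated range (-0.93, SE 0.59, adjusted p = 0.444). The effect was lower in tumor than in spleen M-MDSC by 3.49 on the log2 scale (SE 0.69, adjusted p = 0.0383), but the call was lost without any 1 of the untreated spleen libraries, treated spleen library 1, 2 or 3 or untreated tumor library 1, 2 or 3 (-3.65 to -3.29, adjusted p 0.0525 to 0.0916). Treated spleen PMN-MDSC held 207, 288 and 321 CPM (0.89, SE 0.27, adjusted p = 0.0688, below 0.05 without untreated library 2 or treated library 1, in DESeq2 at 0.0194 and without a filter on low counts at 0.0137), and treated tumor PMN-MDSC 226, 250, 481 and 645 CPM (0.30, SE 0.41, adjusted p = 0.756). In spleen the effect on *Trem1* was smaller in PMN-MDSC than in M-MDSC (-1.59, SE 0.35, adjusted p = 0.0133; 0.0902 in 1 fit over all MDSC groups).

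In spleen, *Trem1* was higher in PMN-MDSC than in M-MDSC by 3.41 in treated mice (SE 0.23, adjusted p = 6.3e-05 in edgeR), and in untreated mice the difference was 5.12 (SE 0.28), tested through PMN-MDSC alone. In untreated tumors the difference was 1.29 (SE 0.34, adjusted p = 0.0319), a call lost without PMN-MDSC library 2, 3 or 4 or M-MDSC library 2 or 4 (1.10 to 1.33, adjusted p 0.062 to 0.0836) and in 1 fit over all MDSC groups (0.0617). The genes most like *Trem1* over the 30 MDSC libraries were *Litaf* (Pearson r = 0.951), *Slc16a3*, a lactate transporter (0.940), and *Srgn*, a granule proteoglycan (0.933).

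Other TREM receptors rose with treatment in spleen M-MDSC, 3 of 3 with a mean of 25 counts in both groups, where 10.7% of all genes tested rose. These were *Trem3* (1.89, adjusted p = 4.8e-05 in edgeR), *Treml2* (1.98, adjusted p = 9.8e-05) and *Treml4* (1.56, adjusted p = 0.00423). In spleen PMN-MDSC 1 of 3 rose, against 6.10% of genes, *Treml2* (1.39, adjusted p = 0.00871), and in tumor 0 of 4 passed in either cell type. At an unadjusted p under 0.05 there were 2 in tumor PMN-MDSC and 1 in tumor M-MDSC, and DESeq2 called 0 and 1. Of 10 genes for the TREM1 ligand and its signalling, *Pglyrp1*, a peptidoglycan recognition protein that binds TREM1, rose in spleen PMN-MDSC (1.5, adjusted p = 0.0171), against 6.10% of all genes. Of 9 tested in spleen M-MDSC, *Lat2*, an adaptor, rose (0.62, adjusted p = 0.0215), against 10.7% of all genes, of 9 in tumor PMN-MDSC *Malt1* fell (-1.72, adjusted p = 0.00386), against 1.07%, and of 8 in tumor M-MDSC 0 passed (5 at an unadjusted p under 0.05, 3 in DESeq2).

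*Ceacam1* and *Ceacam10* had different patterns although their start windows are near-copies. *Ceacam1*, the inhibitory receptor, was at 287, 238, 384 and 297 CPM in untreated spleen PMN-MDSC and at 320, 246, 233 and 362 CPM in untreated spleen M-MDSC. These ranges overlapped (0.43, SE 0.18, adjusted p = 0.0603 in edgeR), although the difference passed with DESeq2, with RLE scaling and without a filter on low counts (adjusted p = 0.0203, 0.0342 and 0.0395). *Ceacam10*, the secreted member of the family, was at 33.4, 40.3, 45.4 and 35.0 CPM in the same PMN-MDSC and at 1.58, 1.86, 2.48 and 0.952 CPM in the M-MDSC, with no overlap (4.91, SE 0.29, tested through PMN-MDSC alone).

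Levels of both were lower in tumor than in spleen PMN-MDSC. *Ceacam1* in untreated tumor PMN-MDSC was at 26.1, 39.0, 50.0 and 26.1 CPM, below every spleen library, a difference of -3.22 (SE 0.25, adjusted p = 5.9e-06 in edgeR). *Ceacam10* was at 4.25, 8.67, 14.8 and 11.4 CPM there, again below every spleen library (-2.08, SE 0.31, tested through spleen alone). *Ceacam1* also fell in untreated M-MDSC, to 64.9, 74.1, 64.4 and 44.1 CPM in tumor (-1.95, SE 0.18, adjusted p = 8.2e-06), with no overlap. In tumors of untreated mice it was the one of 6 tested members that was lower in PMN-MDSC than in M-MDSC (-0.77, SE 0.23, adjusted p = 0.0473), a call lost without PMN-MDSC library 1, 2 or 4 or M-MDSC library 1, 2 or 3 (-0.83 to -0.64, adjusted p 0.0822 to 0.141), in 1 fit over all MDSC groups (0.205) and with at least 10 counts in every library (0.0529).

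With treatment, *Ceacam10* rose in spleen PMN-MDSC to 109, 57.2 and 92.2 CPM, all above the untreated range (1.44, SE 0.25, adjusted p = 0.00962 in edgeR). *Ceacam1* in those libraries was at 646, 346 and 388 CPM, overlapping the untreated ones (0.90, SE 0.25, adjusted p = 0.0533). In tumor PMN-MDSC treated levels were 84.1, 106, 42.4 and 71.9 CPM for *Ceacam1* (1.07, SE 0.29, adjusted p = 0.0742, and 0.0237 without treated library 3) and 5.75, 15.4, 8.67 and 19.8 CPM for *Ceacam10* (0.30, SE 0.47, adjusted p = 0.787). Neither passed in edgeR, and both overlapped the untreated range. *Ceacam1* passed in spleen and tumor PMN-MDSC with DESeq2 (adjusted p = 0.00886 and 0.0151) and without a filter on low counts (0.0163 and 1.1e-04).

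In M-MDSC, treated *Ceacam1* levels were 382, 276, 438 and 276 CPM in spleen (0.31, SE 0.19, adjusted p = 0.289 in edgeR) and 121, 18.1 and 106 CPM in tumor (0.30, SE 0.53, adjusted p = 0.815). *Ceacam10* was too low to test by treatment in M-MDSC, at 0 to 3.54 CPM in treated spleen libraries and 0 in all 3 treated tumor libraries. Mean *Ceacam10* in untreated tumor PMN-MDSC was 37.6 times the pooled level of untreated tumor M-MDSC, which rests on 2 counts (counting interval 10.4 to 311), and in treated tumors at least 9.81-fold higher, against a floor of 3 counts per library.

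*Ceacam1* was most like *Pqlc3* (Pearson r = 0.958), *Ccdc125* (0.950) and *G6pdx* (0.941) over the MDSC libraries, and *Ceacam10* most like *Actn1*, a cytoskeletal crosslinker (0.975), *Nudt4* (0.956) and *Dab2ip* (0.950). Of 13 CEACAM genes in the table, no gene beside these 2 had enough counts for the treatment test. Of 6 partners of CEACAM1, 0 passed with treatment in PMN-MDSC in edgeR, with 2 at an unadjusted p under 0.05 in spleen and 0 in tumor, the same counts that DESeq2 called. *Ptpn6*, a phosphatase recruited by inhibitory motifs, rose in spleen M-MDSC (0.57, adjusted p = 0.0497), as 1 of 6 against 10.7% of all genes, and *Havcr2*, which encodes TIM-3, in tumor M-MDSC (0.95, adjusted p = 0.0369), as 1 of 6 against 1.82%.

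The treatment effects on *Cd177* had opposite signs in PMN- and M-MDSC of both compartments, although none of the 4 passed in edgeR on its own. In untreated spleen PMN-MDSC it was at 567, 542, 1261 and 687 CPM and in treated ones at 2659, 894 and 1533 CPM, with overlap (1.44, SE 0.41, adjusted p = 0.0553 in edgeR, 0.00595 in DESeq2, 5.3e-06 without a filter on low counts, and below 0.05 without untreated library 3 or treated library 2). In untreated spleen M-MDSC it was at 270, 214, 378 and 336 CPM and in treated ones at 200, 49.5, 35.4 and 207 CPM. All treated M-MDSC libraries were below all untreated ones, but the difference did not pass (-1.22, SE 0.55, adjusted p = 0.162, and 0.0764 without the library high in B cell markers). The difference between the effects was 2.71 (SE 0.73, adjusted p = 0.029; 3.10 without the library high in B cell markers). It was lost without untreated PMN-MDSC library 1 or 4, treated PMN-MDSC library 3 or untreated M-MDSC library 3 or 4 (2.58 to 2.78, adjusted p 0.0511 to 0.0593) and in 1 fit over all MDSC groups (0.0537).

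In spleen the range of the neutrophil marker sum went from 24878 to 44425 CPM up to 35830 to 80577 in PMN-MDSC, and from 4103 to 10477 CPM down to 1141 to 6554 in M-MDSC. In tumor it went from 1514 to 5343 CPM up to 4747 to 12486 in PMN-MDSC, but was 258 to 834 CPM untreated and 257 to 1172 CPM treated in M-MDSC, where *Cd177* was lower in 2 of 3 treated libraries. By treatment, 5 of 10 neutrophil markers rose in spleen PMN-MDSC (median log2 fold change 1.09 of those tested), against 6.10% of all genes. In spleen M-MDSC 0 of 8 passed (median -0.36), with 0 at an unadjusted p under 0.05 and 0 in DESeq2. The part of other cells in the levels of *Cd177* was not tested. Over the MDSC libraries *Cd177* was most like *Ltf* (Pearson r = 0.942), *Anxa1* (0.925) and *Ngp* (0.924), and *Ltf* and *Ngp*, which encode granule proteins, are 2 of the 10 neutrophil markers.

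In tumors *Cd177* was lower than in spleen. Untreated tumor PMN-MDSC held 35.8, 95.4, 170 and 73.0 CPM, below all spleen libraries (-3.16, SE 0.45, adjusted p = 2.0e-04 in edgeR), and untreated tumor M-MDSC 61, 77.5, 63.2 and 32.8 CPM, also below all spleen libraries (-2.07, SE 0.23, adjusted p = 3.6e-05). Treated tumor PMN-MDSC held 98.0, 351, 109 and 254 CPM (1.10 against untreated, SE 0.54, adjusted p = 0.321), and treated tumor M-MDSC 33.7, 1.38 and 5.53 CPM (-2.27, SE 0.84, adjusted p = 0.179, and 0.0441 in DESeq2). The first of the treated tumor M-MDSC libraries was within the untreated range and the others below it. Without that library the change was -4.28 and passed (adjusted p = 0.00779). Of the partners of CD177, 3 were tested in PMN-MDSC and 6 in M-MDSC of each compartment, and 0 passed with treatment in edgeR. At an unadjusted p under 0.05 there were 1 in spleen PMN-MDSC, 0 in tumor PMN-MDSC, 2 in spleen M-MDSC and 1 in tumor M-MDSC, and DESeq2 called the same counts.

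*Stfa2l1* was all but restricted to PMN-MDSC at this depth. It was 0 in all 8 untreated M-MDSC libraries and in bulk tumor, and in treated M-MDSC it was above 1 CPM in 1 of 7 libraries, the spleen library high in B cell markers, at 13.3 CPM. In untreated tumors the PMN-MDSC mean of *Stfa2l1* was low, 3.62 CPM. This is at least 0.957-fold the floor of 3 counts per library in M-MDSC (3.78 CPM), so that floor shows no difference there. In untreated spleen PMN-MDSC *Stfa2l1* was at 40.6, 91.1, 58.3 and 65.5 CPM, at least 40.4-fold higher on average than the floor of 3 counts per library in spleen M-MDSC. In treated tumors the ratio to M-MDSC was 540 (counting interval 96.9 to 21330, on 1 count in M-MDSC), and the difference, tested through PMN-MDSC alone, passed (adjusted p = 0.034 in edgeR), but not without PMN-MDSC library 2 or 3 or any 1 of the M-MDSC libraries (adjusted p 0.0585 to 0.158).

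With treatment *Stfa2l1* rose in spleen PMN-MDSC, and in tumor PMN-MDSC it was tested through the treated libraries alone (mean 7.5 counts untreated). Spleen libraries went to 99.3, 281 and 250 CPM, all above the untreated range (2.01, SE 0.42, adjusted p = 0.0197 in edgeR), a call lost without untreated library 1 or 4 or treated library 2 or 3 (1.71 to 1.99, adjusted p 0.052 to 0.0747). In tumor the levels were 3.03, 3.25, 4.40 and 3.79 CPM untreated and 18.1, 33.8, 59.8 and 117 CPM treated. These did not overlap, and the call for the change of 3.97 (SE 0.66, adjusted p = 0.011) was lost without untreated library 1 (3.90, adjusted p = 0.0546). The difference between the effects in tumor and spleen, 1.99 (SE 0.82), did not pass (adjusted p = 0.229). Between tumor and spleen the difference in untreated mice was -4.26 (SE 0.36, tested through spleen alone). In treated mice tumor was lower (-2.27, SE 0.64, adjusted p = 0.0163 in edgeR), a call lost without treated spleen library 2 (-1.96, adjusted p = 0.0564) and without a filter on low counts (-2.34, adjusted p = 0.0868).

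Other genes of the stefin A cluster lie beside *Stfa2l1* on chromosome 16. *Gm5483*, a stefin gene whose transcript is 79.3% identical to it, went from 18.8, 45.3, 35.6 and 15.1 CPM to 61.5, 216 and 175 CPM in spleen PMN-MDSC (2.69, adjusted p = 0.0171 in edgeR) and from 1.21, 9.21, 7.99 and 5.69 CPM to 20.5, 36.5, 94.9 and 145 CPM in tumor (3.60, adjusted p = 0.0397). Neither pair of groups overlapped. *Stfa2*, the near-copy shown above, was at 1.06, 0.996, 0 and 1.61 CPM in untreated spleen PMN-MDSC and at 25, 88.7 and 174 CPM in treated ones. *Stfa1* went from 0.531 to 1.49 CPM untreated to 8.32, 32.3 and 34.9 CPM treated, and *BC100530* from at most 1.02 CPM to 12.8, 47.9 and 54.0 CPM. Of 11 stefin and cystatin genes, 3 reached a mean of 25 counts in both groups of spleen PMN-MDSC, and of these *Gm5483* and *Stfa2l1* rose, where 6.10% of all genes did, and *Cst3* did not pass. *Stfa2*, *Stfa1* and *BC100530* were tested there through the treated libraries alone, so their passing is not counted, and the same holds for *Gm5483* and *Stfa2l1* in tumor. In spleen M-MDSC the one that rose of 2 tested was *Cstb*, the cystatin B gene (1.52, adjusted p = 1.8e-04), and in tumor M-MDSC 0 of 2 passed (0 at an unadjusted p under 0.05 and 0 in DESeq2).

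**Figure D4:**
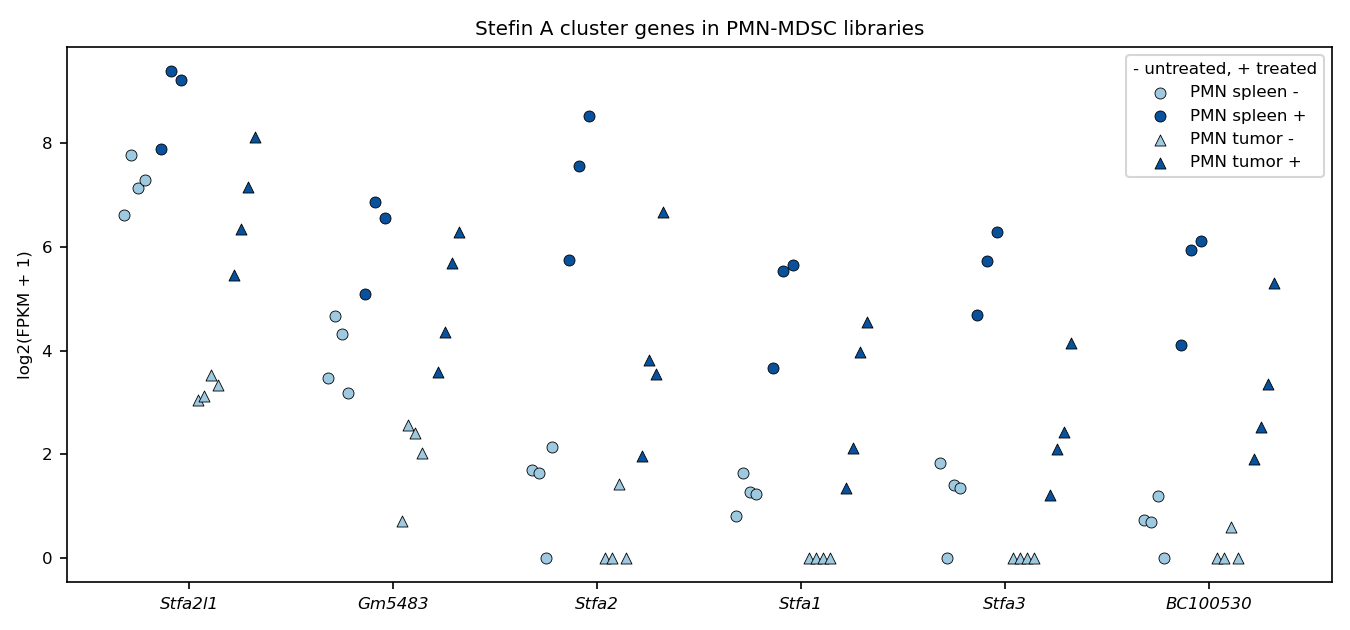
Levels of 6 stefin A cluster genes as log2(FPKM + 1) in every PMN-MDSC library, circles for spleen and triangles for tumor, light for untreated and dark for treated mice. In spleen the treated libraries lie above the untreated ones for each gene, and *Stfa2* and *BC100530* start near 0 while *Stfa2l1* has the highest untreated level of the 6.

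Stefins inhibit cysteine cathepsins. Of 5 such cathepsin genes 0 passed with treatment in PMN-MDSC of either compartment. At an unadjusted p under 0.05 there were 1 in spleen and 2 in tumor, and DESeq2 called 1 in each. In spleen M-MDSC *Ctsb* (1.16, adjusted p = 0.00202 in edgeR) and *Ctsl* (1.11, adjusted p = 0.0397) rose, where 10.7% of all genes did, and in tumor M-MDSC *Ctsb* did (1.34, adjusted p = 0.0254), against 1.82%. In untreated mice all 5 were higher in tumor than in spleen PMN-MDSC, where 29.4% of all genes were. Over the MDSC libraries *Stfa2l1* was most like *Gm5483* (Pearson r = 0.972), *Asprv1* (0.968) and *Iqsec1* (0.952). The stretches of 50 bases that *Stfa2l1* shares with other genes lie in *Stfa2* and *Gm49652*, not in *Gm5483*.

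*Retnlg*, a secreted resistin-like protein made by neutrophils, had the highest level per length of all members in spleen PMN-MDSC. It was at 348, 603, 554 and 443 CPM untreated and 1750, 1844 and 2703 CPM treated, with every treated library above every untreated one (2.38, SE 0.29, adjusted p = 0.00303 in edgeR; 0.077 in 1 fit over all MDSC groups). In tumor PMN-MDSC it was at 14.6, 29.3, 86.3 and 20.4 CPM untreated and 128, 312, 104 and 740 CPM treated. There too the groups did not overlap, but the libraries of each spread widely and the change of 3.13 (SE 0.85) did not pass (adjusted p = 0.103; 0.00601 in DESeq2). Tumor was lower than spleen by 3.84 on the log2 scale in untreated (SE 0.52, adjusted p = 1.4e-04) and by 3.07 in treated PMN-MDSC (SE 0.69, adjusted p = 0.00588).

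In M-MDSC *Retnlg* was low and uneven. Untreated spleen M-MDSC held 1.58, 31.1, 2.90 and 5.0 CPM and treated ones 32, 11.6, 3.38 and 56.6 CPM, with wide overlap (1.42, SE 1.04, adjusted p = 0.383 in edgeR, and 0.71 without the library high in B cell markers). Untreated tumor M-MDSC held 2.75, 1.35, 5.55 and 5.04 CPM and treated ones 11.4, 1.38 and 154 CPM. One treated library made up most of that group's level, another lay within the untreated range, and the change of 3.78 (SE 1.32) did not pass (adjusted p = 0.16, and 0.0385 without treated library 2, at 4.36). It was tested through the treated libraries alone. Of 4 resistin family genes *Retnlg* alone had enough counts to test by treatment, and *Retn* was at most 5.98 CPM. *Retnlg* was most like *Slc27a4* (Pearson r = 0.930), *Crispld2* (0.920) and *Iqsec1* (0.918).

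By compartment, 7 of 8 members were lower in tumor than in spleen PMN-MDSC, in untreated mice, where 29.7% of genes were lower, and in treated mice, where 25.4% were. All 8 reached a mean of 25 counts in both groups in treated mice, whereas *Ceacam10* and *Stfa2l1* in untreated mice were tested through spleen alone, which leaves 5 of 6. The exception in each was *Trem1* (0.73 and 0.17, neither passed in edgeR, the first also passing without spleen library 2 or tumor library 1). In untreated M-MDSC 4 members had enough counts: *Trem1*, tested through tumor alone, was higher in tumor (15.7% of genes were), *Ceacam1* and *Cd177* were lower (12.7% of genes were), and *Fpr2* did not pass (-0.32, SE 0.28, adjusted p = 0.424 in edgeR). In treated M-MDSC 0 of 6 passed, where 5.87% of genes did in either direction, with values from -3.15 for *Cd177* (adjusted p = 0.135) to 1.21 for *Retnlg* (adjusted p = 0.615). At an unadjusted p under 0.05 there were 2, and DESeq2 called 1, *Ceacam1* (-1.99, adjusted p = 0.00419). In 1 fit over all MDSC groups *Ceacam1* and *Cd177* passed (9.0e-04 and 0.00602). Without tumor library 2, *Trem1* was higher in tumor (1.59, adjusted p = 0.00548) and *Ceacam1* lower (-1.51, adjusted p = 0.0201), and without tumor library 1 *Cd177* was lower (-5.16, adjusted p = 0.0424). Neutrophil marker sums were 1514 to 5343 CPM in tumor and 24878 to 44425 CPM in spleen PMN-MDSC of untreated mice, moving with the 7 members that were lower.

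By cell type, 7 of 8 members were higher in PMN- than in M-MDSC of untreated spleens, where 30.9% of genes were, and 8 of 8 in treated spleens, against 28.8%. Among members with a mean of 25 counts in both cell types, the counts were 2 of 3 in untreated and 6 of 6 in treated spleens, since the others were tested through PMN-MDSC alone. All 8 also passed there without the library high in B cell markers. *Ceacam1*, which did not pass in untreated spleen, was higher by 0.97 in treated spleen (SE 0.27, adjusted p = 0.0142 in edgeR), and *Cd177* by 1.74 untreated (SE 0.29, adjusted p = 6.8e-04) and 4.34 treated (SE 0.71, adjusted p = 0.00118). In untreated tumors 4 of 6 tested were higher, against 7.25% of genes: *Fpr1*, *Fpr2*, *Trem1* and *Retnlg* (3.35, SE 0.63, adjusted p = 0.00608; 0.0791 in 1 fit over all MDSC groups). *Trem1* was the one of these 4 with a mean of 25 counts in both cell types. The 1 that was lower was *Ceacam1*, against 5.73% of genes, and *Cd177* did not pass (0.71, adjusted p = 0.298). In treated tumors *Stfa2l1* passed as higher (0.380% of genes did), but it was tested through PMN-MDSC alone, and with at least 10 counts in every library 0 members were called. There *Fpr1* (0.69, SE 0.62), *Fpr2* (0.72, SE 0.52), *Trem1* (2.51, SE 0.71) and *Cd177* (4.07, SE 1.01) did not pass in edgeR (adjusted p = 0.617, 0.535, 0.238 and 0.208). *Trem1* and *Cd177* passed there in DESeq2 (0.00504 and 1.7e-04) and in 1 fit over all MDSC groups (0.00279 and 0.00235).

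Tests of differences between treatment effects found few members. Between tumor and spleen PMN-MDSC 0 of 8 passed in edgeR, where 3.50% of genes did in either direction, with differences from -1.11 for *Ceacam10* to 1.99 for *Stfa2l1*. At an unadjusted p under 0.05 there was 1, and DESeq2 called 0. Between tumor and spleen M-MDSC 1 of 6 was lower, *Trem1*, against 0.561% of genes. Between PMN- and M-MDSC of the spleen 3 of 8 were lower (*Fpr1*, *Fpr2* and *Trem1*), against 6.45% of genes, and 1 was higher (*Cd177*), against 4.41%. In this spleen comparison *Ceacam10* also passed as higher without the library high in B cell markers (3.17, adjusted p = 0.0341 in edgeR) and in DESeq2 (1.92, adjusted p = 0.0477). It was tested through PMN-MDSC alone, with means of 4.25 counts in untreated and 3.0 in treated M-MDSC, so these calls are no support for a difference between the effects. Between PMN- and M-MDSC of the tumor 0 of 7 passed in edgeR and 0 in DESeq2, with 1 at an unadjusted p under 0.05, where 0.0239% of genes did in edgeR.

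Among 25 other genes for neutrophil receptors and membrane proteins, 4 of 24 tested rose with treatment in spleen PMN-MDSC, against 6.10% of all genes: *Ly6g* (2.65, adjusted p = 0.0028 in edgeR), *Ifitm6* (2.67, adjusted p = 0.00795), *Clec4e* (1.19, adjusted p = 0.0211) and *Fcgr4* (1.66, adjusted p = 0.0234). *Ly6g* is also among the neutrophil markers above. In tumor PMN-MDSC *Fcgr4*, an activating Fc receptor, was among those that rose (1.09, adjusted p = 0.00562). In spleen M-MDSC 7 of 16 with a mean of 25 counts in both groups rose, against 10.7% of all genes, and 1 fell, against 8.96%, with *Clec4e*, a C-type lectin receptor (2.83, adjusted p = 4.1e-05), and *C5ar1*, the receptor of complement fragment C5a (2.15, adjusted p = 0.00359), among those that rose. In tumor M-MDSC 2 of 20 rose, against 1.82%, *Fcgr4* (1.97, adjusted p = 0.0207) and *Siglece* (1.41, adjusted p = 0.0461). Between untreated tumor and spleen M-MDSC, 8 of 16 genes of this list with a mean of 25 counts in both groups were higher in tumor, against 15.7% of all genes, and 2 were lower, against 12.7%. *Clec4e* (4.59) and *C5ar1* (3.37) were among the higher ones, while *Clec4d* (3.96) and *Il1r2* (3.28) were tested through tumor alone.

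In bulk tumor all members were low. *Ceacam1* was at 6.48, 2.12, 1.80 and 1.37 CPM, *Fpr1* at 0, 0.265, 0.788 and 1.03 CPM and *Fpr2* at 0.132, 0.795, 0.788 and 0.572 CPM. *Trem1* was at most 0.458 CPM and *Cd177* at most 0.450 CPM, and *Ceacam10*, *Stfa2l1* and *Retnlg* were at 0 in all 4 libraries. In counts, *Ceacam1* had a mean of 21.25 per bulk library and the other members at most 4.25.

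No member reached a mean of 25 counts in bulk tumor, so the 6 members tested against tumor PMN-MDSC and the 3 tested against tumor M-MDSC were tested through MDSC alone and had to be lower in bulk tumor. Their differences are given as values, without a count. Against untreated tumor PMN-MDSC they ran from -3.85 for *Ceacam1* (SE 0.48) to -10.24 for *Trem1* (SE 0.47), where 33.3% of all genes tested were lower, and *Retnlg* was at least 47.3-fold lower. Against untreated tumor M-MDSC they were -8.90 for *Trem1* (SE 0.50), -8.00 for *Cd177* (SE 0.46) and -4.56 for *Ceacam1* (SE 0.46), where 31% of genes were lower. The neutrophil marker sum was 15.5 to 41.6 CPM in bulk tumor, with *Ly6g* at 0, and the sum of epithelial markers 4029 to 5933 CPM.

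Among themselves, *Stfa2l1*, *Ceacam10* and *Retnlg* ran most closely together after the FPR pair, with Pearson r of 0.921 for *Stfa2l1* and *Ceacam10*, 0.913 for *Stfa2l1* and *Retnlg* and 0.869 for *Ceacam10* and *Retnlg* over the 30 MDSC libraries, which share cell type, compartment and depth. *Ceacam1* and *Trem1* were the one pair with a negative value (-0.330). The neighbours *Cd177* and *Ceacam10* had r = 0.796, and *Ceacam1* and *Ceacam10*, whose start windows are alike, 0.303.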

How the data were processed

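RNA of sorted MDSC and of bulk tumor was made into stranded total RNA libraries with 13 PCR cycles and no molecular identifiers. Per the methods and submitters' notes, the authors mapped reads to mm10 with ContextMap and BWA, allowing at most 4 mismatches, and assigned fragments to Gencode v16 genes with featureCounts (Subread 1.4.6-p3), respecting strand. The deposited values are raw counts, without normalization. Column names gave each library's sort, organ and treatment. One of 35 libraries, with 10 counts, was left out. None of the 48 pairs of libraries within groups held identical values, and they differed by more than counting noise (chi-square per degree of freedom 6.19 to 49.5), which cannot tell separate animals from repeat libraries. Libraries were counted as separate samples because the sample titles number them within each group. The same numbers recur across organs and sorts, so libraries of different groups may come from the same mouse, and p-values cover the spread between these libraries.

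From the counts, CPM and FPKM were computed with GENCODE M21 exon lengths. Each comparison tested genes whose mean was 25 counts or more, with edgeR 4.0.16 in R 4.3.3 (TMM, robust quasi-likelihood F-test, two-sided, Benjamini-Hochberg adjustment over all genes tested), on the libraries of each comparison alone, or with an interaction term over 4 groups. Alternatives were DESeq2 1.42.0, RLE size factors, dropping the filter, requiring 10 counts per gene in each library, 1 fit over all MDSC groups, adjusted p below 0.001 with at least 2-fold change (the study's thresholds) and each library left out in turn. The code was tested on simulated data. Start windows were aligned with Biopython 1.88. Members and gene lists were chosen with earlier results of these data known. Named beside the members were, for each list, up to 4 genes with the smallest adjusted p, and for each member the 3 genes with the highest Pearson r. In addition *Ly6g*, *Stfa2*, *Ceacam2* and *Retn* were given as levels. An allele of the tumor model and a gene of the receptor list are not reported here.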

Additional observations from a re-analysis of the deposited data

Results flagged for a closer look

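In groups of 4 libraries, a gap test (Dixon's ratio above 0.829) set apart 1 library in 3 of 50 groups tested, and chance flags about 1 in 20. These were *Ceacam1* in 1 bulk tumor library at 6.48 CPM, *Stfa2l1* in 1 treated spleen M-MDSC library at 13.3 CPM, and *Retnlg* in 1 untreated spleen M-MDSC library at 31.1 CPM. The *Stfa2l1* library is the one with a B cell marker sum of 13759 CPM, and it also held 9.73 CPM of *Gm5483* and 5.31 CPM of *Stfa2*, against at most 0.675 and 0 CPM in the other 3 libraries of its group. Its neutrophil marker sum, 6355 CPM, was within the range of the others (1141 to 6554).

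Treatment effects differed between groups by an interaction test in 5 cases, on the log2 scale. For *Trem1* in M-MDSC the effect was lower in tumor than in spleen (-3.49, adjusted p = 0.0383 in edgeR). In spleen the effect was lower in PMN- than in M-MDSC for *Fpr1* (-2.63, adjusted p = 0.00298), *Fpr2* (-1.28, adjusted p = 0.0308) and *Trem1* (-1.59, adjusted p = 0.0133) and higher for *Cd177* (2.71, adjusted p = 0.029). These comparisons of spleen cells share the same untreated and treated M-MDSC libraries. In the untreated ones *Fpr1* had a mean of 7.25 counts and *Trem1* of 18, so the values of these 2 genes rest on low counts. The part of other cells in these differences was not tested.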

How the results depend on the processing

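No paired analysis was possible by column name because count columns carry no mouse number, so a replicate block could not be fitted that way. The running numbers of the columns follow the order of the sample titles. Matching by that order was not used, and the effect of pairing by mouse was not tested. The sample titles share numbers across organs and sorts, and comparisons between these treat libraries as independent. RLE size factors changed no count of members called by over 1.5 times and moved the median of all genes by at most 0.0983 (log2). With DESeq2, 8 members in place of 5 were called by treatment in spleen PMN-MDSC, 5 in place of 2 in tumor PMN-MDSC, 1 in place of 0 between treated tumor and spleen M-MDSC, and 3 in place of 1 between treated tumor PMN- and M-MDSC. Without a filter on low counts, 8 were called by treatment in spleen PMN-MDSC, 2 between treated tumor and spleen M-MDSC, 2 between treated tumor PMN- and M-MDSC, 6 between bulk tumor and M-MDSC, and 3 for the M-MDSC interaction of tumor and spleen. With at least 10 counts in every library, which tests fewer genes, 1 was called by treatment in tumor PMN-MDSC, 0 in tumor M-MDSC, 3 between PMN- and M-MDSC of untreated spleen, 1 of untreated tumor, 0 of treated tumor and 0 in either bulk tumor comparison. In 1 fit over all MDSC groups 2 were called between treated tumor and spleen M-MDSC, 2 and 3 between PMN- and M-MDSC of untreated and treated tumors, and 1 for the spleen interaction of cell types. At adjusted p below 0.001 with at least 2-fold change, 0 were called by treatment in spleen PMN-MDSC, tumor PMN-MDSC and tumor M-MDSC, 2 between treated tumor and spleen PMN-MDSC, 5 between PMN- and M-MDSC of treated spleen, 0 of untreated and treated tumor, and 0 in the interactions. All other counts were within 1.5 times. The cause of these shifts was not tested. Levels are CPM by library total. With TMM factors 7 group means of members moved and 65 stayed the same. Those that moved were in spleen PMN-MDSC, such as treated *Fpr1* (388 in place of 279 CPM) and treated *Ceacam1* (627 in place of 460 CPM).

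With 1 library left out, members called ranged from 4 to 6 by treatment in spleen PMN-MDSC, 0 to 2 in tumor PMN-MDSC, 1 to 3 in tumor M-MDSC, 0 to 2 between treated tumor and spleen M-MDSC, 2 to 4 and 0 to 1 between PMN- and M-MDSC of untreated and treated tumors, 0 to 1 for the M-MDSC interaction of tumor and spleen, 2 to 5 for the spleen interaction of cell types and 0 to 1 for the tumor one. In spleen M-MDSC 3 were called by treatment each time.

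Some values that did not pass changed sign. For *Ceacam1* between PMN- and M-MDSC of treated tumors, -0.01 became 0.0073 with RLE and ran from -0.49 to 0.42 with 1 library left out. For *Fpr2* in the PMN-MDSC interaction of tumor and spleen, 0.03 became -0.031 with DESeq2, -0.041 with RLE and -0.014 in 1 fit, and ran from -0.56 to 0.33. For *Ceacam1* in the M-MDSC interaction it became 0.014 with at least 10 counts and ran from -0.43 to 0.49. With 1 library left out, the change with treatment ran from -0.11 to 0.51 for *Trem1* in tumor PMN-MDSC and from -0.10 to 0.79 for *Ceacam1* in tumor M-MDSC. Between tumor and spleen it ran from -0.20 to 0.43 for *Trem1* in treated PMN-MDSC and from -1.99 to 1.92 for *Retnlg* in treated M-MDSC. In the PMN-MDSC interaction it ran from -0.069 to 0.90 for *Fpr1*, -0.17 to 1.57 for *Retnlg* and -0.66 to 0.17 for *Cd177*, and in the M-MDSC interaction from -0.57 to 0.039 for *Fpr2* and -0.84 to 3.07 for *Retnlg*. In the spleen interaction of cell types it ran from -4.24 to 0.42 for *Stfa2l1* and -0.50 to 1.79 for *Retnlg*, and in the tumor one from -1.58 to 2.63 for *Retnlg*.

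Depth limits *Ceacam10* and *Stfa2l1* in M-MDSC and the members in bulk tumor, where mean counts per library were at most 4.25 except for *Ceacam1* (21.25).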
